A study of Homo sapiens with 24 samples.

Results

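The proteasome subunit genes are the genes whose symbols begin with PSM, a letter from A to G and a number. Such a name was carried by 46 of 13236 gene groups in the deposited counts, and 44 of them were genes of the proteasome. The others were PSMC3IP, a meiotic recombination factor, and PSMG3-AS1, an RNA from the strand opposite PSMG3, and both were kept apart. The bins of PSMG3-AS1 lie beside those of PSMG3 and do not overlap them. The 44 genes were 7 of 8 listed genes of the 20S alpha ring, all 7 constitutive genes of the beta ring, 3 of 4 tissue-specific or interferon-induced beta genes, all 6 ATPase genes and all 11 listed non-ATPase genes of the 19S cap, 1 of 3 listed chaperones of 19S assembly, all 4 activator genes, the inhibitor PSMF1 and all 4 chaperones of 20S assembly. PSMA8, PSMB11, PSMD5 and PSMD9 were not in these tables and were not analysed here. Of 4769 bins that the authors marked as detained introns, 11 lay in these genes.

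The proteasome is the main protease of the cytosol and nucleus and destroys proteins that carry ubiquitin chains. Its 20S core is a barrel of alpha and beta rings, and the proteolytic sites lie inside the beta rings. The 19S cap binds ubiquitin chains, removes them and threads the substrate into the core with a ring of ATPases, while other activators open the core without ATP. The transcription factor NFE2L1 raises transcription of the subunit genes when proteasome activity falls, and interferon exchanges the catalytic subunits for PSMB8, PSMB9 and PSMB10. A detained intron is one that stays in an otherwise spliced, polyadenylated transcript, which is held in the nucleus.

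The study measured poly(A) RNA by stranded sequencing in HEK293T, a line derived from human embryonic kidney. OSMI-2 at 10 µM inhibits OGT, the enzyme that puts O-linked N-acetylglucosamine on nuclear and cytosolic proteins. TMG (Thiamet-G) at 5 µM inhibits OGA, the enzyme that removes it, whose gene is listed as MGEA5. Cells were treated for 2 h or 6 h, and each drug at each time had DMSO-treated libraries of its own. Thus the OSMI-2 experiment held DMSO 2 h (n = 3), OSMI-2 2 h (n = 3), DMSO 6 h (n = 3) and OSMI-2 6 h (n = 2), and the TMG experiment held DMSO 2 h, TMG 2 h, DMSO 6 h and TMG 6 h (n = 3 each). The remaining sample of OSMI-2 at 6 h was not used here. No label says whether replicates were separate cultures, so each p-value measures the spread between these samples, which may be technical. RNA was isolated by either of 2 methods, and the labels do not say which library had which. In bulk RNA, fewer cells and less RNA per cell cannot be told apart.

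The 23 libraries held 39465746 to 100161560 counts, and the proteasome genes took 0.737 to 1.01% of them. The HEK293T markers VIM (306 to 787 CPM, counts per 1000000 counts of the library) and NEFL (15.7 to 31.3 CPM) were present in every library, while LHX1 stayed at or below 0.695 CPM. In the OSMI-2 experiment, DMSO 6 h library a stood apart. Its slope of level on GC content was 0.414 in log2 units per 10 points of GC, against 0.783 to 1.08 in the other libraries of that experiment. Detained introns took 1.214, 0.983 and 0.756% of counts in DMSO 6 h libraries a, b and c, and 0.286 and 0.328% after OSMI-2 for 6 h. OGT itself was at 376, 137 and 166 CPM in those DMSO libraries and at 55.7 and 36.9 CPM after OSMI-2. MGEA5 was at 244, 117 and 140 CPM and then at 36.0 and 30.1 CPM, and after TMG for 6 h it was at 252, 266 and 260 CPM against 144, 165 and 167 CPM under DMSO. Calls at 6 h of OSMI-2 are therefore given with and without library a.

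Levels between genes were compared as CPM per kilobase, taking the median over each gene's bins of at least 50 bases outside detained introns. In the 6 DMSO libraries of the TMG experiment, PSMA7, an alpha ring subunit, was at 474 ± 55.0 CPM per kilobase (SD, n = 6) and PSMB4, a beta ring subunit, at 466 ± 26.5. These leading genes did not differ beyond their spread. This spread pools 3 libraries at 2 h and 3 at 6 h, as do all levels per kilobase below. It thus includes any change with time. PSMA2 followed at 359 ± 55.7 and PSMB2 at 324 ± 10.0, again with overlapping libraries. Between these times PSMA2 rose and PSMA7 fell, as given below. With PSMB5 included in the beta ring, the median gene of the alpha ring was at 291 CPM per kilobase, that of the beta ring at 221, that of the ATPases at 149 and that of the non-ATPase genes at 148. In the DMSO libraries of the OSMI-2 experiment the rings stood in the other order, with the beta ring at 386 and the alpha ring at 118, and the ATPases were at 119 and the non-ATPase genes at 114.

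The lowest levels belonged to the interferon-induced subunits PSMB8 and PSMB9 and to some, not all, of the assembly and activator genes. PSMB9 was at 0.230 ± 0.196 CPM per kilobase and PSMB8 at 0.000954, with PSMB8 reads absent from 5 of 6 of those libraries. In all 23 libraries PSMB8 was at 0 to 0.0949 CPM and PSMB9 at 0 to 0.867 CPM. Next came PSMG4, a chaperone of 20S assembly, at 24.7 ± 3.05 CPM per kilobase, PSME4, the nuclear activator PA200, at 30.3 ± 6.03, and PSMG2, another assembly chaperone, at 33.8 ± 2.24. The chaperones PSMG1 (149 ± 9.74) and PSMD10 (99.2 ± 7.03) stood higher. Among activators PSME3, the nuclear PA28 gamma, was highest at 224 ± 12.6, above PSME2 at 71.7 ± 8.05 and PSME1 at 65.0 ± 7.38. PSMB5 and PSMB10 were left out of this order because their bins differed too much. In the same libraries the bins of PSMB5 ran from 7.29 to 224 CPM per kilobase, with 1 bin of 9835 bases, and those of PSMB10 from 0.184 to 86.5.

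**Figure D1:**
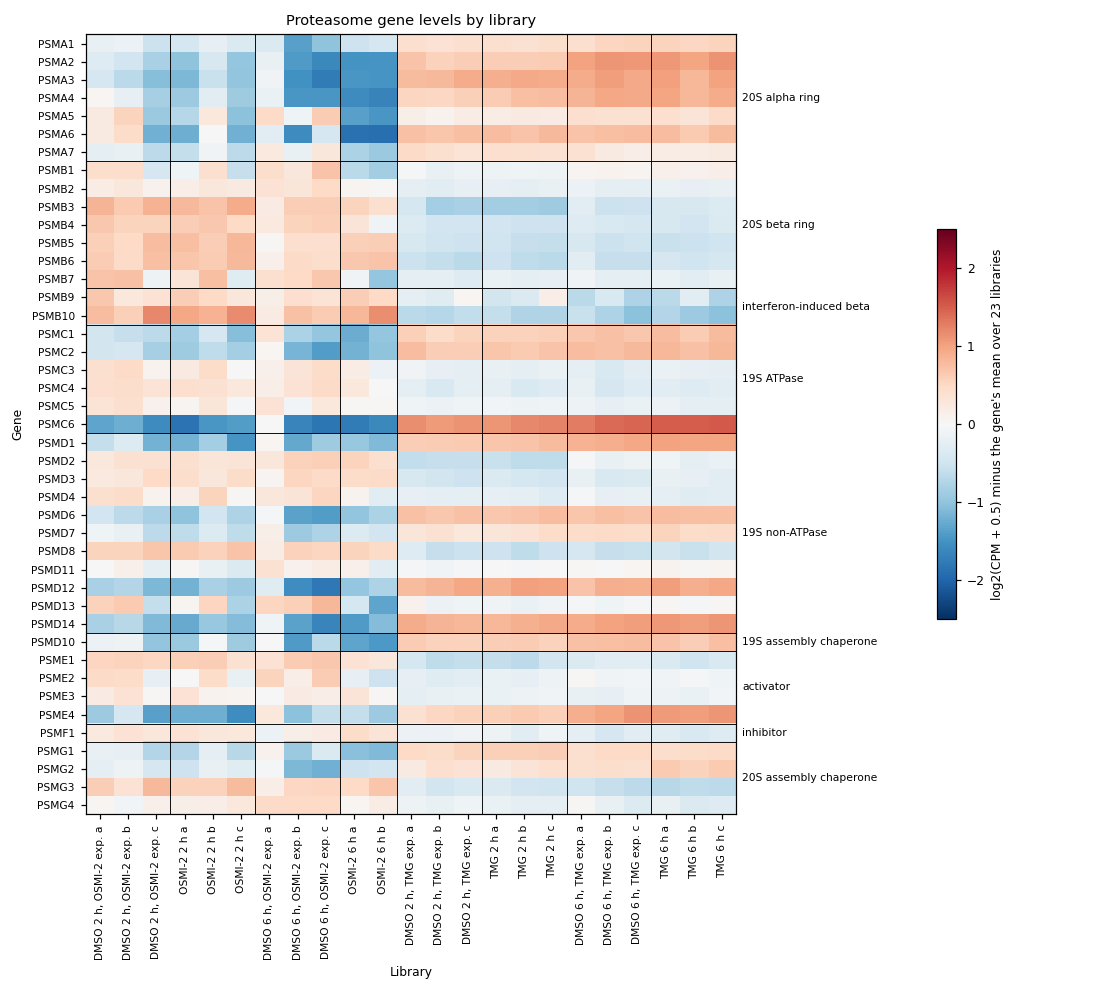
Each row is a proteasome gene, ordered by role, and each column a library; colour is the log2 CPM minus the gene's mean over libraries. PSMC6 and PSMD14 are lower in every library of the left block (OSMI-2 experiment) than in any of the right block (TMG experiment).

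The same gene stood at different levels in the 2 experiments even under DMSO. PSMC6, the ATPase RPT4, was at 30.2, 32.4 and 25.5 CPM in DMSO 2 h of the OSMI-2 experiment and at 171, 160 and 167 CPM in DMSO 2 h of the TMG experiment. PSMB10, an interferon-induced catalytic subunit, differed the other way, at 81.2, 72.1 and 109 CPM against 29.6, 28.6 and 30.7 CPM. PSMB3, a beta ring subunit, was at 352, 309 and 358 CPM against 145, 110 and 112 CPM. For each of these genes the libraries of the 2 experiments did not overlap. In the DMSO libraries of the OSMI-2 experiment the highest genes per kilobase were PSMB4 (887 ± 79.6), PSMD8 (543 ± 53.7) and PSMB6 (531 ± 78.3), and PSMC6 ranked 37 of 44, against 18 of 44 in the TMG experiment.

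These differences moved with base composition. The GC content of the longest transcript was 38.8% for PSMC6, 37.9% for PSMD12 and 32.0% for PSMD14, whose log2 ratios of DMSO 2 h level, OSMI-2 experiment over TMG experiment, were -2.50, -1.76 and -1.74. It was 60.1% for PSMB10 and 53.6% for PSMB3, with log2 ratios of 1.56 and 1.47. Across the 43 genes with counts, Pearson's r between GC content and this ratio was 0.756 and Spearman's rho 0.759. Across 10430 genes of all kinds they were 0.783 and 0.809. Genes are not independent replicates, and all points share the same 6 libraries, so these values are descriptions. In the drug comparisons below, GC content was also set against the fitted log2 fold changes of the genes tested, again as a description. Pearson's r was 0.653 at OSMI-2 2 h, 0.356 at OSMI-2 6 h, -0.516 at TMG 2 h and -0.374 at TMG 6 h. The part of GC content in single results below was not tested beyond the fits with the GC trend removed, and no level was compared between the 2 experiments below.

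**Figure D2:**
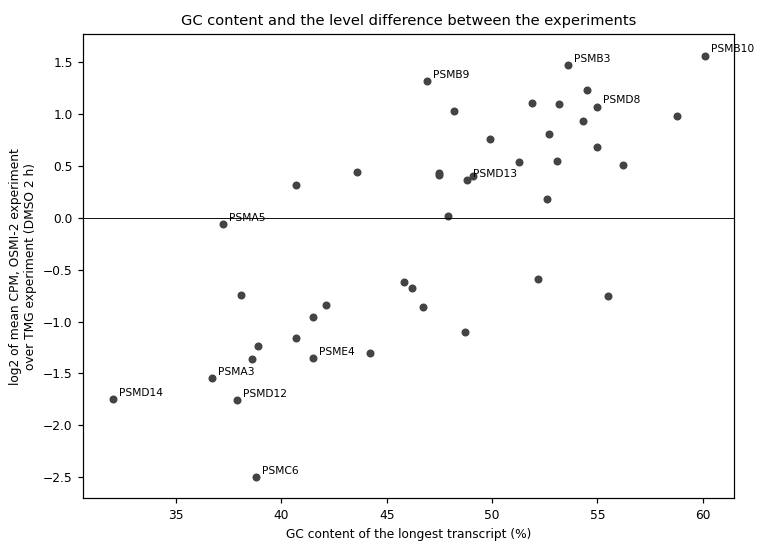
Each point is a proteasome gene, with the GC content of its longest transcript (%) on the horizontal axis and the log2 ratio of its mean CPM in DMSO 2 h, OSMI-2 experiment over TMG experiment, on the vertical axis. Low-GC genes such as PSMC6 (-2.50) lie at the lower left and high-GC genes such as PSMB10 (1.56) at the upper right.

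After OSMI-2 for 2 h no proteasome gene passed the test. By edgeR's quasi-likelihood test 0 of 43 genes tested had an adjusted p under 0.05, and 0% of all 12320 genes did. At an unadjusted p under 0.05 there were 0 of the 43 proteasome genes and 159 of all genes. The filter on low counts removed PSMB8. Fitted log2 fold changes ran from -0.64 to 0.16, with a median of -0.08 against -0.01 over all genes, and their standard errors from 0.11 to 0.44. The lowest limit of any 95% interval was -1.63 and the highest 0.71, in different genes. Changes up to these limits were thus not excluded for the genes concerned. Only PSMG4 had libraries that did not overlap, at 17.5, 16.0 and 18.5 CPM under DMSO and 18.7, 18.9 and 20.3 CPM after OSMI-2. This was 1 of 43 genes, against 3.94% of all genes, 1.69% higher and 2.26% lower.

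Both groups at 2 h were split in several core and cap genes. The alpha subunit PSMA6 was at 128, 151 and 47.8 CPM under DMSO and at 46.7, 111 and 47.6 CPM after OSMI-2. The beta subunit PSMB1 was at 470, 467 and 259 CPM under DMSO and at 321, 455 and 233 CPM after OSMI-2. The trypsin-like catalytic subunit PSMB7 was at 435, 440 and 245 CPM and then at 331, 449 and 215 CPM. For each of these genes, and for PSMA5 and PSMD13, DMSO library c and OSMI-2 libraries a and c were the low ones.

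After OSMI-2 for 6 h 2 proteasome genes fell and none rose. PSMA5, a subunit of the alpha ring, and PSMD13, a non-ATPase subunit of the 19S cap (RPN9), were the ones past the threshold. PSMA5 was at 332, 223 and 374 CPM under DMSO and at 93.5 and 86.6 CPM after OSMI-2. PSMD13 was at 325, 337 and 396 CPM under DMSO and at 164 and 88.5 CPM after OSMI-2. In both genes the treated libraries lay below all 3 DMSO libraries. All 10 bins of PSMA5 and all 13 bins of PSMD13 outside detained introns were also lower in every treated library.

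By edgeR's quasi-likelihood test over 12486 genes the log2 fold change of PSMA5 was -1.42 (SE 0.33, 95% interval -2.08 to -0.77, adjusted p = 0.00566). That of PSMD13 was -1.13 (SE 0.33, 95% interval -1.79 to -0.47, adjusted p = 0.0315). Thus 2 of 43 genes tested (4.65%) fell, against 2.37% of all genes that fell, 2.5% that rose and 4.87% called in either direction. At 2 h the same genes had been within the spread, PSMA5 at 282, 354 and 126 CPM under DMSO and 145, 286 and 118 CPM after OSMI-2. PSMD13 was then at 331, 352 and 146 CPM and at 233, 322 and 128 CPM. The test of the difference between the 2 times called 0 of 43 proteasome genes by edgeR, with 0.111% of all genes called, 0.0159% higher and 0.0953% lower. There were 1845 of all genes at an unadjusted p under 0.05. Without DMSO 6 h library a it called 5 of 43, all higher, and 1610 of all 12547 genes, 1374 of them higher. Both calls depended on single libraries. PSMA5 did not pass without DMSO 6 h library c, OSMI-2 6 h library a or OSMI-2 6 h library b. PSMD13 did not pass without any of these or without DMSO 6 h library b, nor with median-of-ratios size factors or DESeq2. Leaving out either OSMI-2 6 h library, which leaves 1 treated library assumed to vary like the others, left 0 genes of any kind past the threshold.

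**Figure D3:**
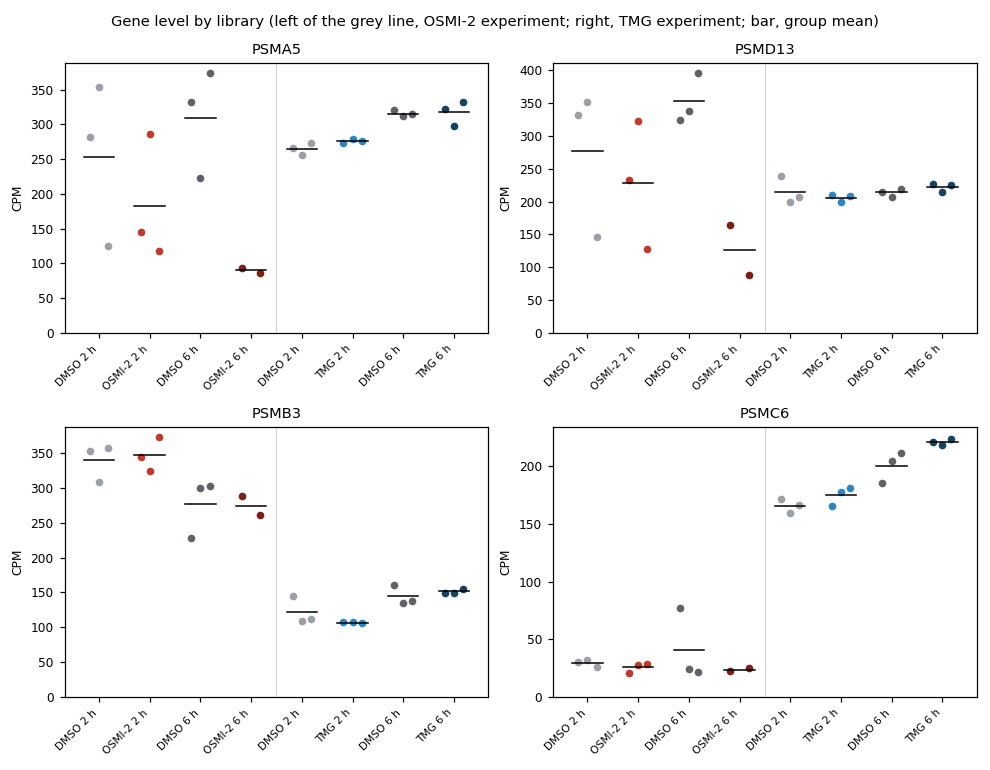
Each point is a library, grouped along the horizontal axis by treatment and time, with level in CPM on the vertical axis from 0 and bars at the group means, for PSMA5, PSMD13, PSMB3 and PSMC6. The OSMI-2 6 h libraries of PSMA5 (93.5 and 86.6 CPM) lie below those of DMSO 6 h, and PSMC6 in DMSO 6 h library a (77.5 CPM) lies above the others of the OSMI-2 experiment.

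The scale of the 6 h fit matters for direction. TMM scaling over genes and introns added 0.37 to every log2 ratio of CPM, and the median fitted change was 0.15 over all genes and 0.07 over the proteasome genes. With TMM over genes only these medians were -0.09 and -0.18, and with median-of-ratios size factors 0.30 and 0.22. On the CPM scale 18 of 43 genes did not overlap between groups, 5 higher and 13 lower, against 45.6% of all genes, 12.5% higher and 33.1% lower.

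Among the catalytic subunits none passed the test at 6 h of OSMI-2. The chymotrypsin-like subunit PSMB5 was at 255, 336 and 334 CPM under DMSO and at 379 and 382 CPM after OSMI-2, with a log2 fold change of 0.65 (SE 0.32, adjusted p = 0.211). The caspase-like subunit PSMB6 was at 273, 349 and 337 CPM and then at 400 and 413 CPM. PSMB7 stood the other way, at 350, 377 and 425 CPM and then at 252 and 135 CPM, with a log2 fold change of -0.63 (adjusted p = 0.237). In PSMB5 and PSMB6 both treated libraries lay above all DMSO libraries, and in PSMB7 both lay below. PSMB10 was at 54.5, 78.7 and 73.9 CPM under DMSO and at 84.3 and 107 CPM after OSMI-2 (log2 fold change 0.81, SE 0.30, adjusted p = 0.085). PSMB9, at 0.455 to 0.818 CPM in these libraries, had a log2 fold change of 0.76 (adjusted p = 0.266).

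Other subunits of the core with unadjusted p-values under 0.05 were spread over both directions. PSMB1 was at 467, 420 and 563 CPM under DMSO and at 217 and 188 CPM after OSMI-2 (log2 fold change -0.90, adjusted p = 0.0889). PSMA6 was at 91.9, 36.6 and 82.4 CPM and then at 29.9 and 29.5 CPM (-0.86, adjusted p = 0.0828). PSMA1 was at 180, 90.0 and 116 CPM and then at 162 and 173 CPM (0.78, adjusted p = 0.101). Its treated libraries lay between DMSO library a and the other DMSO libraries. In all, 10 of the 43 genes had an unadjusted p under 0.05, against 2883 of all 12486.

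None of the 6 ATPase genes, which form the unfolding ring of the cap, passed the test at 6 h of OSMI-2. Their log2 fold changes ran from -0.33 (PSMC6) to 0.20 (PSMC5), with a median of 0.05. PSMC6 was at 77.5, 23.9 and 21.5 CPM under DMSO and at 22.3 and 24.8 CPM after OSMI-2, so DMSO library a alone was high. PSMC1 (114, 52.1 and 46.1 CPM, then 37.9 and 46.3 CPM) and PSMC2 (118, 50.8 and 43.2 CPM, then 50.4 and 57.0 CPM) showed the same high library. PSMC3, PSMC4 and PSMC5 did not, with PSMC4 at 243, 277 and 301 CPM and then at 258 and 216 CPM.

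Nor did the deubiquitinase, the ubiquitin receptor, the activators, the inhibitor or the 20S chaperones pass. PSMD14, which cuts the ubiquitin chain off the substrate, was at 87.9, 36.9 and 29.8 CPM under DMSO and at 35.2 and 44.1 CPM after OSMI-2 (log2 fold change 0.07, SE 0.31). PSMD4, a ubiquitin receptor of the cap, was at 406, 419 and 481 CPM and then at 356 and 277 CPM (-0.11, SE 0.33). The inhibitor PSMF1 was at 167, 204 and 214 CPM and then at 254 and 232 CPM, without overlap (0.66, SE 0.31, adjusted p = 0.185). The 4 activators had log2 fold changes from -0.45 (PSME2) to 0.40 (PSME3), and the 4 chaperones from -0.35 (PSMG1) to 0.61 (PSMG2).

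Without DMSO 6 h library a the same comparison called 18 of 43 genes, 14 higher and 4 lower, against 42.4% of all 12402 genes, 34.2% higher and 8.22% lower. The proteasome share, 41.9%, was near that of all genes. The largest of the higher log2 fold changes were those of PSMD12 (1.11), a scaffold subunit of the cap lid, PSMA1, PSMG2 (0.99) and PSMD6 (0.79). The lower ones were PSMA5 (-1.44, adjusted p = 0.0059), PSMD13 (-1.22, adjusted p = 0.0162), PSMB1 (-0.98, adjusted p = 0.0076) and PSMA7 (-0.63, adjusted p = 0.0366). By role these were 2 higher and 2 lower of 7 alpha genes, 2 higher and 1 lower of 7 beta genes, 2 higher of 6 ATPases, 4 higher and 1 lower of 11 non-ATPase genes, 2 higher of 4 chaperones of 20S assembly and 0 of 4 activators. The GC slope and the intron share of library a, given above, moved with this count, and their part in it was not tested.

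**Figure D4:**
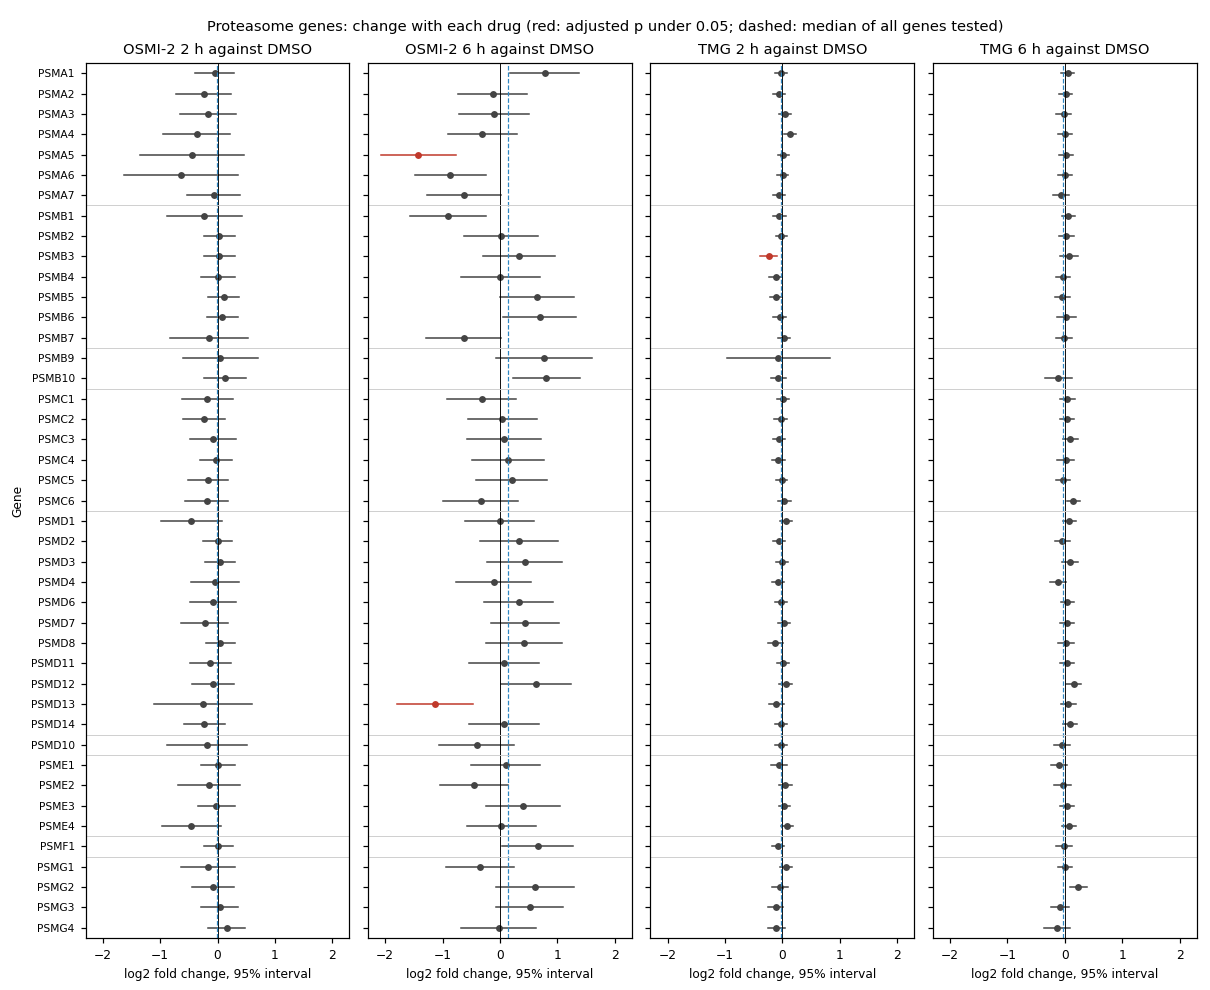
Each point is the fitted log2 fold change of a proteasome gene (treated over DMSO, edgeR) with its 95% interval, in the 4 drug comparisons, ordered by role. Most intervals are wider for OSMI-2 than for TMG, and PSMA5 and PSMD13 at OSMI-2 6 h and PSMB3 at TMG 2 h are the genes past the threshold.

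After TMG for 2 h PSMB3 fell and no proteasome gene rose. PSMB3 was at 145, 110 and 112 CPM under DMSO and at 107, 107 and 106 CPM after TMG. The treated libraries lay below all DMSO libraries, by a small margin to libraries b and c. Its log2 fold change was -0.24 (SE 0.07, 95% interval -0.39 to -0.09, adjusted p = 0.0445 by edgeR over 12365 genes), so 1 of 43 genes tested (2.33%) was called, against 6.66% of all genes that fell, 1.25% that rose and 7.91% in either direction. Without DMSO library a it was -0.09 (adjusted p = 0.367). It also did not pass without any single TMG library, with TMM over genes only, with DESeq2, with the GC trend removed or in the fit of all libraries. Of its 6 bins, 3 were lower in every treated library.

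Over the 43 genes at TMG 2 h log2 fold changes ran from -0.24 to 0.13, with a median standard error of 0.05. The largest standard error was 0.44, for PSMB9, with a 95% interval from -0.97 to 0.83. The median change was -0.03, as over all genes. PSMA4, an alpha subunit, had the highest fold change, at 240, 239 and 252 CPM and then at 259, 279 and 283 CPM, without overlap but not past the test (log2 fold change 0.13, SE 0.05, adjusted p = 0.139). The catalytic subunits PSMB5, PSMB6 and PSMB7 had log2 fold changes of -0.12, -0.05 and 0.02, the ATPases from -0.07 to 0.04, the activators from -0.06 to 0.08, PSMD14 of -0.02, PSMD4 of -0.08 and PSMF1 of -0.07. On the CPM scale 7 of 43 genes did not overlap, 6 of them higher, against 26.5% of all genes, 14.5% higher and 12% lower.

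After TMG for 6 h no proteasome gene passed the test. By edgeR 0 of 42 genes tested were called, against 6.1% of all 12090 genes, 1.2% higher and 4.9% lower, and 3 of the 42 had an unadjusted p under 0.05. DESeq2 called 1. The filter removed PSMB8 and PSMB9. Log2 fold changes ran from -0.13 to 0.24 with a median standard error of 0.06, and the median was 0.02 against -0.03 over all genes. The gene nearest to the threshold was PSMG2, a chaperone that pairs with PSMG1 in assembling the alpha ring. It was at 28.5, 29.3 and 28.5 CPM under DMSO and at 34.4, 32.6 and 34.2 CPM after TMG, without overlap (0.24, SE 0.07, adjusted p = 0.0556). It passed with TMM over genes only, with DESeq2 and with the GC trend removed. Without DMSO library a 1248 of all 12148 genes passed, 448 of them higher, and 5 of the 42 did, all higher: PSMG2 (0.26), PSMB3 (0.19), PSMD3 (0.19), PSMB6 (0.16) and PSMC3 (0.15).

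PSMC6 was at 186, 204 and 211 CPM under DMSO and at 221, 218 and 224 CPM after TMG for 6 h, with a log2 fold change of 0.15 (SE 0.06, adjusted p = 0.128). The other ATPases lay between -0.03 and 0.09, PSMB5, PSMB6 and PSMB7 at -0.05, 0.03 and -0.01, and the activators between -0.11 (PSME1) and 0.07 (PSME4). In all, 9 of 42 genes did not overlap on the CPM scale, 7 of them higher, against 29% of all genes, 9.2% higher and 19.8% lower. The difference between the 2 times of TMG called 0 of 43 proteasome genes by edgeR, with 0.0242% of all genes called, 0.0161% higher and 0.00806% lower. There were 1033 of all genes at an unadjusted p under 0.05. PSMG3-AS1, which is not a proteasome gene, fell from 5.35, 5.19 and 5.25 CPM to 3.53, 3.65 and 4.35 CPM after TMG for 6 h (log2 fold change -0.45, SE 0.12, adjusted p = 0.0398 by edgeR). PSMG3 itself was at 35.7, 33.7 and 32.0 CPM and then at 31.0, 32.5 and 31.8 CPM (-0.09, adjusted p = 0.544).

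The effects of the 2 drugs were compared as the difference of their fold changes. At 2 h 0 of 43 proteasome genes differed by edgeR, as 0% of all 12538 genes did, with 1 of the 43 and 1022 of all genes at an unadjusted p under 0.05. At 6 h 8 of 43 differed (18.6%), against 19.9% of all genes, 16.9% with OSMI-2 higher and 2.98% with OSMI-2 lower. This fit took a single spread per gene from the libraries of both experiments. Its median standard error was 0.28, below the 0.32 at OSMI-2 6 h alone, with 0.06 at TMG 6 h, so its calls may be too many. Only PSMA5 and PSMD13 also passed at OSMI-2 6 h itself. Each drug was given in its own experiment, so drug and experiment cannot be told apart. OSMI-2 gave the higher fold change for 5, PSMB10 (difference 1.08 in log2), PSMA1 (0.90), PSMB5 (0.85), PSMF1 (0.83) and PSMB6 (0.82). It gave the lower fold change for PSMA5 (-1.29), PSMD13 (-1.04) and PSMB1 (-0.81). The adjusted p-values by edgeR lay between 0.0157 for PSMA5 and 0.0467 for PSMB1. Without DMSO 6 h library a of the OSMI-2 experiment 36 of 43 were called, with 9395 of all 12547 genes. The count was 2 without OSMI-2 6 h library a, 0 without OSMI-2 6 h library b and 1 without any single 6 h library of the TMG experiment. With TMM over genes only it was 3, all lower.

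DMSO libraries at 6 h were set against those at 2 h, a comparison added after the data were seen, which shares its libraries with the drug comparisons. In the TMG experiment 8 of 42 genes were higher and 3 lower at 6 h (26.2%), against 16.3% higher and 29.6% lower of all 12294 genes. PSME4 rose from 134, 148 and 155 CPM to 194, 206 and 225 CPM (log2 fold change 0.46, adjusted p = 1.78e-05 by edgeR). PSMD2, the large scaffold subunit of the cap base, rose from 345, 352 and 350 CPM to 505, 464 and 483 CPM (0.42, adjusted p = 4.9e-05). In both genes every 6 h library lay above every 2 h library. PSMA2 (0.37), PSMA4 (0.31), PSMD1 (0.23), PSMC6 (0.21), PSME1 (0.20) and PSMA5 (0.19) were also higher, and PSMG3 (-0.27), PSMF1 (-0.24) and PSMA7 (-0.21) lower. PSME4 and PSMD2 passed in all 12 alternatives run for them. The count of 11 was 6 without DMSO 6 h library c.

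In the OSMI-2 experiment 17 of 43 genes (39.5%) were lower at 6 h and none higher, against 13.9% and 4.62% of all 12356 genes. The largest falls were those of PSMA4 (-1.22), PSMA6 (-1.18), PSMA1 (-1.15) and PSMG2 (-1.05). TMM scaling took 0.56 off every log2 ratio here, and with TMM over genes only 1 gene was called and the median moved from -0.63 to -0.32. On the CPM scale 6 of the 43 genes did not overlap between the times, 2 higher and 4 lower. Among all genes 40.6% did not, 34% higher and 6.56% lower. Only 4 of the 17 had libraries that did not overlap, PSMB3, PSMB5, PSMB6 and PSMF1. PSMA4, for example, was at 171, 145 and 93.0 CPM at 2 h and at 149, 60.4 and 60.3 CPM at 6 h, with library a high. Without DMSO 2 h library a, b or c the count of genes called was 1, 4 or 6. Without DMSO 6 h library a, b or c it was 23, 5 or 8. Over all genes this count ran from 518 to 4592 with 1 library left out, against 2292 with none.

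The 11 detained intron bins lay in 8 genes and belonged to 10 introns, since 2 adjoining bins of PSMA1 were parts of the same intron. On hg19 they were PSMA1 E008 (chr11:14535434-14535935) and E009 (chr11:14535936-14535948), PSMC1 E008 (chr14:90731511-90734567), PSMC2 E006 (chr7:103002536-103003132), PSMC4 E010 (chr19:40486362-40486568) and PSMC6 E013 (chr14:53187909-53190522). The others were PSMD11 E010 (chr17:30801843-30804538) and E013 (chr17:30806395-30806868), PSMD2 E012 (chr3:184021863-184022091) and E019 (chr3:184024623-184025144), and PSME4 E006 (chr2:54096676-54101475). Each is intronic in its own gene by the authors' bin names, on the minus strand for PSMA1 and PSME4 and on the plus strand for the rest. Of these genes 4 encode ATPases, and no such bin lay in a beta ring gene. Each was measured as its own count and as a percent of the counts in the gene's other bins.

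After TMG for 2 h the intron of PSMC6 rose. It held 0.401, 0.521 and 0.589% of the gene under DMSO and 1.30, 1.18 and 1.03% after TMG, from 34, 47 and 46 counts and from 102, 98 and 93 counts. All 3 treated libraries lay above the DMSO libraries, while the level of the gene itself did not pass the test (log2 fold change 0.04, SE 0.05, adjusted p = 0.742). The log2 fold change of the intron count was 1.25 (SE 0.18, adjusted p = 3.56e-05 by edgeR), and that of its ratio to the gene was 1.21 (SE 0.19, adjusted p = 0.000258 by limma). The authors' deposited table gave a log2 fold change of 1.21 with an adjusted p of 2.85e-08. The count passed in all 11 alternatives, at 0.97 to 1.35. The ratio did not pass with limma's trend taken over the log ratios, at an adjusted p of 0.062.

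**Figure D5:**
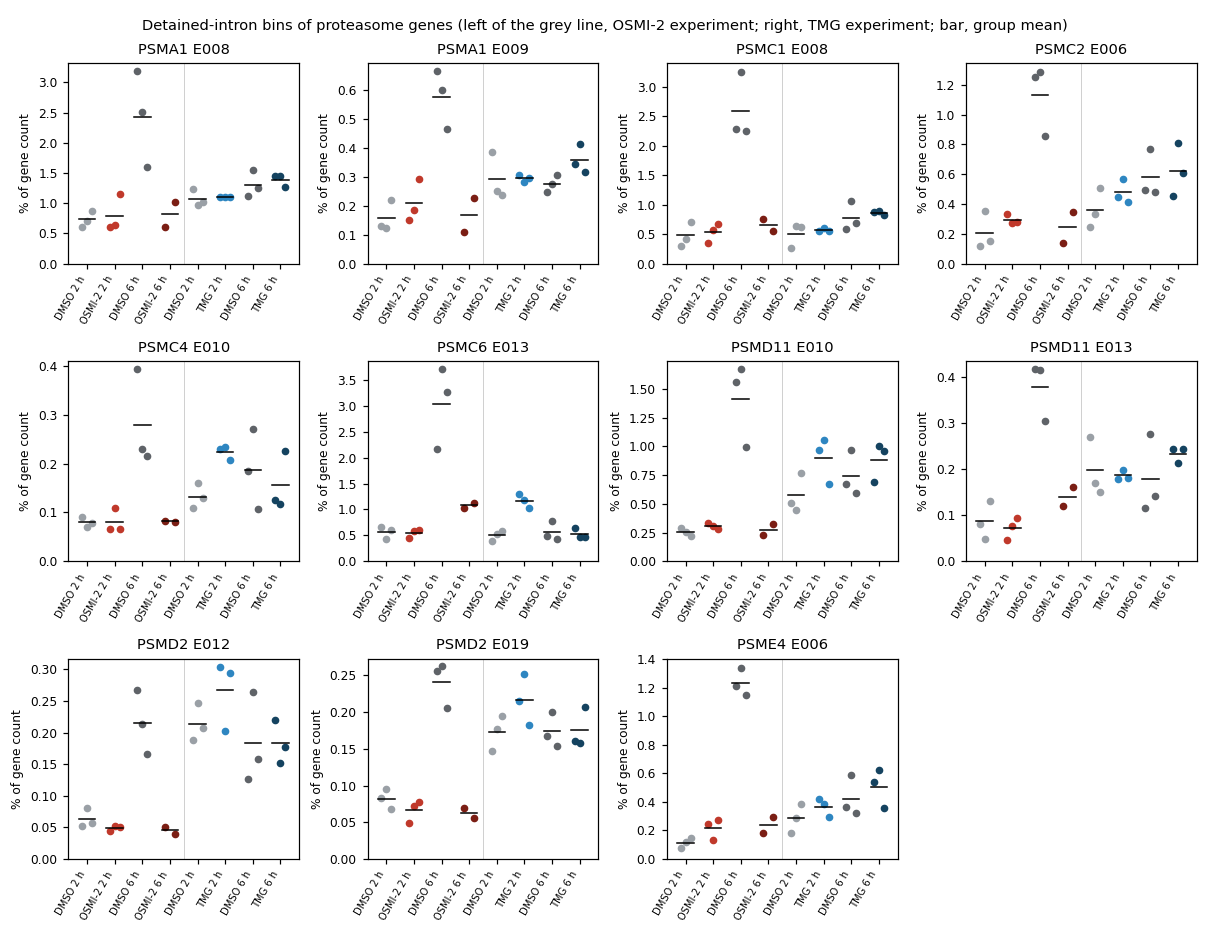
Each panel is a detained intron and each point a library, with the intron's counts as a percent of the gene's on the vertical axis and the groups along the horizontal axis. PSMC6 E013 is higher after TMG for 2 h (1.03 to 1.30%) than under DMSO (0.401 to 0.589%), and for all 11 bins DMSO 6 h of the OSMI-2 experiment lies above the other groups of its experiment.

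With PSMC6 E013, PSMD11 E010, in the gene of the lid subunit RPN6, was the other intron past the threshold at TMG 2 h. It held 0.505, 0.449 and 0.768% of the gene under DMSO and 0.965, 1.06 and 0.669% after TMG, with overlapping libraries. Its count had a log2 fold change of 0.66 (SE 0.21, adjusted p = 0.0347 by edgeR), and the call was lost in 7 of 11 alternatives, among them leaving out DMSO library a or b or TMG library a or b. PSMC4 E010 was higher in all 3 treated libraries, at 0.108, 0.160 and 0.129% and then at 0.229, 0.234 and 0.208%, and did not pass (adjusted p = 0.14). It rested on 10 to 20 counts a library. Thus 2 of 11 introns (18.2%) rose, against 9.75% of all introns that rose and 9.87% in either direction. The median log2 change was 0.27 over the 11 introns and 0.29 over all.

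After TMG for 6 h 0 of 11 introns passed, against 0.191% of all introns, 0.167% higher and 0.0239% lower, by edgeR, with 327 of all 4186 introns at an unadjusted p under 0.05. PSMC6 E013 was then at 0.490, 0.782 and 0.429% under DMSO and at 0.644, 0.464 and 0.464% after TMG. The difference between its effects at 6 h and 2 h was -1.18 in log2 (unadjusted p = 0.000385, adjusted p = 0.211 by edgeR), and 0 of 11 introns passed that test, against 0.0682% of all.

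After OSMI-2 for 2 h 0 of the 8 introns that passed the filter were called, against 0.131% of all introns, by edgeR, with 90 of all 3043 at an unadjusted p under 0.05. PSMC6 E013, PSMD11 E013 and PSME4 E006 had too few counts. PSMC6 E013 held 0.667, 0.428 and 0.606% under DMSO and 0.451, 0.578 and 0.606% after OSMI-2.

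After OSMI-2 for 6 h all 11 introns fell, as did 86.4% of all introns (86.9% were called in either direction). PSMC6 E013 went from 2.17, 3.71 and 3.26% of the gene to 1.04 and 1.12%. PSMD11 E010 went from 1.56, 1.67 and 0.996% to 0.232 and 0.320%. PSME4 E006 went from 1.21, 1.34 and 1.14% to 0.183 and 0.294%. In all 11 bins both treated libraries lay below every DMSO library. The log2 fold changes of the counts were -1.65 for PSMC6 E013, -2.28 for PSMD11 E010 and -2.33 for PSME4 E006, and by edgeR the adjusted p-values were 0.000159, 3.89e-10 and 2.01e-06. The smallest falls were those of PSMA1 E008 (-0.79) and E009 (-0.93). Without DMSO library a 9 of 11 fell, with 3837 of all 4583 introns, and these PSMA1 bins did not pass, at -0.26 (adjusted p = 0.414) and -0.55 (adjusted p = 0.183).

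Relative to the gene, the falls at OSMI-2 6 h ran from -1.38 for PSMD11 E013 to -2.30 for PSMD11 E010, and by limma all 11 passed, against 89.2% of all introns that fell and 89.4% in either direction. The median was -1.93 over the 11 and -1.63 over all. All 11 passed with each library left out in turn. The DMSO side of this comparison was high. PSMC6 E013 stood at 0.428 to 0.667% in DMSO 2 h of that experiment and at 2.17 to 3.71% in DMSO 6 h, and 10 of 11 introns were higher in DMSO 6 h than in DMSO 2 h, against 88.5% of all introns (1.72% lower, 90.3% in either direction). Without DMSO 6 h library a PSMA1 E008 did not pass and 9 were higher. In the TMG experiment 3 of 11 were higher at DMSO 6 h, PSME4 E006 (0.99), PSMC2 E006 (0.74) and PSMC1 E008 (0.73), against 21% of all introns (21.9% in either direction). None of these 3 passed without DMSO 2 h library a or b or DMSO 6 h library b, and 1 intron passed without DMSO 6 h library c and 2 without DMSO 2 h library c. The OSMI-2 6 h values, for PSMC6 E013 at 1.04 and 1.12%, lay above those of DMSO 2 h for this intron, while for PSMD11 E010 they lay at 0.232 and 0.320% against 0.223 to 0.286%.

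The difference of the 2 drugs' effects at 6 h was called for 9 of 11 introns, all lower under OSMI-2, against 73.5% of all introns (0.576% higher, 74.1% in either direction). Without DMSO 6 h library a of the OSMI-2 experiment it was called for 5 of 11, with 2077 of all 4647 introns lower, and PSMA1 E009, PSMC2 E006, PSMC6 E013 and PSMD11 E013 did not pass. At 2 h it was called for 0 of 11, against 0.26% of all introns, 0.0472% higher and 0.213% lower, by edgeR, with 531 of all 4235 at an unadjusted p under 0.05. In the OSMI-2 experiment the effects at 6 h and 2 h differed for 9 of 11 introns, all lower at 6 h, against 65.7% (66% in either direction), and for 7 without DMSO 6 h library a, when PSMA1 E009 and PSMC6 E013 did not pass. All these intron counts at OSMI-2 6 h depend on scaling to the genes, since scaling to the introns alone sets their common fall to 0.

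The bins outside detained introns gave a further reading of these genes. In the authors' deposited table for OSMI-2 6 h, 28 of 487 proteasome gene bins (5.75%) had an adjusted p under 0.05, 12 higher and 16 lower relative to the rest of their gene, against 4.08% of all bins. For OSMI-2 2 h, TMG 2 h and TMG 6 h that table called 0 of 493, 0 of 471 and 0 of 460 such bins, against 0.00893%, 0.14% and 0.0565% of all bins.

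The promoters of the subunit genes are where NFE2L1 binds, at the antioxidant response element. The 250 bases before each RefSeq start were therefore searched on both strands for TGANNNNGC, a looser string than the core of that element. The RefSeq promoter table (GRCh38.p14) held 38 of the 44 genes, with 47 promoters. The motif lay in 25 of these 47 promoters (53.2%) and in 21 of the 38 genes, against 35.2% of all 35114 promoters of that length. A match of these letters is a description and not a binding site. The following windows of 30 bases are shown for the called genes that held a match, PSMB3 and PSMA5, and for PSMA4 and PSMD12, which had the highest fold changes at TMG 2 h and at OSMI-2 6 h without library a, with the motif in capitals and each read 5′ to 3′ along its gene.
PSMB3: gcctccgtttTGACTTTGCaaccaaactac
PSMA4: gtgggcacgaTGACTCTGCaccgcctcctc
PSMD12: agacaaaaccTGACGCTGCaggctggagtg
PSMA5: caagccctcgTGAGGAAGCgcgttggccca

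These windows lie at chr17:38752627-38752656 on the plus strand for PSMB3, where the motif ends 96 bases before the start, and at chr15:78540650-78540679 on the plus strand for PSMA4, where it ends 118 bases before it. They lie at chr17:67366723-67366752 on the minus strand for PSMD12, with the motif end 157 bases before the start, and at chr1:109426529-109426558 on the minus strand for PSMA5, with the motif end 92 bases before it. PSMA4 had 3 promoters, of which only 1, the one shown, held a match. The PSMA5 promoter held 4 matches, of which 1 is shown, and the promoters of PSMD13 and PSMC6 in the table held none. Thus PSMA5 and PSMD13, which both fell at OSMI-2 6 h, differed in this respect. Any part of the motif in these falls was not tested.

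With all libraries none of the listed regulators of subunit gene transcription passed the test. The list was not sorted by whether a gene acts for or against that transcription. The tests covered 9 of 10 such genes with counts, by edgeR in each of the 4 drug comparisons. At an unadjusted p under 0.05 there were 0 of 9 at OSMI-2 2 h, 0 at OSMI-2 6 h, 1 at TMG 2 h and 1 at TMG 6 h. NFE2L1 was at 191, 227 and 200 CPM in DMSO 6 h of the OSMI-2 experiment and at 138 and 143 CPM after OSMI-2, without overlap on the CPM scale, with a fitted log2 fold change of -0.19 (SE 0.31, adjusted p = 0.749 by edgeR). Without DMSO library a its log2 fold change was -0.30 (adjusted p = 0.053), and 4 of the 9 rose at OSMI-2 6 h, NFE2L2, FBXW7, HCFC1 and MAFG, against 34.2% of all genes. DDI2, the protease that activates NFE2L1, was at 7.0, 4.08 and 3.38 CPM and then at 3.52 and 4.67 CPM (0.18, SE 0.37). After TMG for 6 h NFE2L1 was at 156, 153 and 144 CPM against 161, 163 and 149 CPM under DMSO (-0.06, SE 0.06).

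Of 20 partner genes tested, such as the assembly factor POMP, the receptor ADRM1 and the deubiquitinase USP14, 1 rose at OSMI-2 6 h, against 2.5% of all genes, and none passed in the other drug comparisons. It was UBQLN2, a shuttle factor for ubiquitylated proteins, at 0.815, 0.616 and 0.369 CPM and then at 1.05 and 1.19 CPM (log2 fold change 1.31, adjusted p = 0.0414 by edgeR). Without DMSO library a 11 of the 20 rose, UBQLN2 among them, and 2 fell, against 34.2% and 8.22% of all genes. POMP was at 162, 80.9 and 99.9 CPM and then at 80.4 and 77.7 CPM (-0.13, SE 0.30).

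Genes of antigen presentation and interferon response share the pathway of PSMB8 to PSMB10. At TMG 2 h HLA-C, a class I heavy chain, fell from 368, 355 and 322 CPM to 296, 273 and 271 CPM (log2 fold change -0.36, adjusted p = 0.000651 by edgeR). HLA-B (-0.30, adjusted p = 0.00206) and the peptide transporter TAP1 (-0.30, adjusted p = 0.00513) also fell. HLA genes resemble each other, and how the authors' counting split shared reads is not stated. In the same comparison the log2 fold change of PSMB10 was -0.07 (SE 0.06, adjusted p = 0.55). At OSMI-2 6 h B2M, the class I light chain, fell from 65.7, 26.6 and 53.2 CPM to 14.4 and 15.2 CPM (-1.32, adjusted p = 0.0112), and without DMSO library a its log2 fold change was -1.14 (adjusted p = 0.026). None of these 4 genes passed at OSMI-2 2 h or TMG 6 h. Of the HEK293T markers NEFM rose at OSMI-2 6 h (1.53, and 1.99 without DMSO library a, when KRT18, NEFL and VIM rose too), KRT8 fell at TMG 2 h (-0.31) and KRT18 (-0.37) and VIM (-0.22) fell at TMG 6 h. Their part in the results above was not tested.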

How the data were processed

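Stranded poly(A) RNA was sequenced, and per the submitters' processing notes reads were aligned with STAR to hg19. The deposited tables hold whole-number counts per exon or intron bin, with the authors' log2 fold changes and p-values (adjusted and not) for treated over DMSO. Per the file headers they also hold the authors' mean signal per bin and score columns of their fit, which were not used. Per the file headers each table names its libraries by drug, time, treatment and a letter from a to c, so a library is known by group but not by replicate number. The 4 tables held 164219 bins and 23 of 24 libraries.

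A gene's count was the sum of its bins without a detained intron, and CPM is counts per 1000000 of the library total. Genes and introns were tested with edgeR 4.0.16 (R 4.3.3; TMM over genes and introns, filterByExpr, quasi-likelihood test), and the ratio of intron to gene with limma 3.58.1 on log2((intron + 1)/(gene + 1)), introns and genes with a mean count of at least 10, trend over mean log2 intron count. P-values were adjusted by Benjamini-Hochberg over all features tested, with a threshold of 0.05. DESeq2 1.42.0, other scalings, no filter, a fit of all libraries, a GC correction and another limma trend (both chosen after seeing the data, as were the comparisons of DMSO times) and leaving out each library were alternatives. The tests were checked on simulated counts. The members, gene lists and tests were chosen with earlier results of these data known. Named genes were the largest called changes, the catalytic, ATPase, deubiquitinase, receptor, activator, inhibitor and chaperone genes, the highest and lowest by level, and all detained introns. Other genes were picked for mention from their values. Some results of the other gene lists are not reported here.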

Additional observations from a re-analysis of the deposited data

Results flagged for a closer look

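The following effects differed between the 2 drugs at 6 h, or between 6 h and 2 h of OSMI-2, by edgeR's test of the difference itself (adjusted p under 0.05). Values are differences of log2 fold changes.

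For the genes at 6 h, OSMI-2 minus TMG, the differences were 0.90 for PSMA1, -1.29 for PSMA5, -0.81 for PSMB1, 1.08 for PSMB10, 0.85 for PSMB5, 0.82 for PSMB6, -1.04 for PSMD13 and 0.83 for PSMF1. Of these only PSMA5 and PSMD13 also passed at OSMI-2 6 h itself, and drug and experiment cannot be told apart.

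For the detained introns at 6 h, OSMI-2 minus TMG, they were -1.17 for PSMA1 E009, -2.33 for PSMC1 E008, -2.04 for PSMC2 E006, -1.53 for PSMC6 E013, -2.42 for PSMD11 E010, -1.66 for PSMD11 E013, -1.71 for PSMD2 E012, -1.43 for PSMD2 E019 and -2.50 for PSME4 E006.

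For the detained introns under OSMI-2, 6 h minus 2 h, they were -1.37 for PSMA1 E009, -2.35 for PSMC1 E008, -2.41 for PSMC2 E006, -1.64 for PSMC4 E010, -1.50 for PSMC6 E013, -2.49 for PSMD11 E010, -1.58 for PSMD2 E012, -1.36 for PSMD2 E019 and -2.82 for PSME4 E006. The 2 sets of intron differences share the OSMI-2 6 h comparison.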

How the results depend on the processing

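No paired analysis was possible because the count columns carry the letters a to c, while the titles number replicates in another way. Counts below are proteasome genes or introns called, and the cause of each change was not tested except where stated.

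Genes. At OSMI-2 6 h the count was 2, and 1 with median-of-ratios size factors, 4 with TMM over genes only, 20 in the fit of all libraries, 10 with the GC trend removed and 0 to 18 with 1 library left out. At TMG 2 h it was 1, 0 with TMM over genes only, DESeq2, the fit of all libraries or the GC trend removed, and 0 to 1 with 1 left out. At TMG 6 h it was 0, 1 with TMM over genes only, DESeq2 or the GC trend removed, and 0 to 5. For the drug difference at 6 h it was 8, with 17, 3, 21 and 18 under median-of-ratios, TMM over genes only, DESeq2 and GC removal, and 0 to 36. For DMSO time it was 17 in the OSMI-2 experiment (1 with TMM over genes only, 33 in the fit of all libraries, 31 with GC removal, 1 to 23) and 11 in the TMG experiment (2 in the fit of all libraries, 6 to 16). For the time differences it was 0, with 4 under GC removal and 0 to 5 for OSMI-2, and 0 to 1 for TMG. Over all genes the calls at OSMI-2 6 h were 608, and 503 to 5974 across settings. At TMG 2 h they were 978, and 0 to 1090. At TMG 6 h they were 737, and 2 to 1310. For the drug difference at 6 h they were 2500, and 1035 to 5971. For DMSO time in the OSMI-2 experiment they were 2292, and 1135 to 6137. For DMSO time in the TMG experiment they were 5641, and 1829 to 6091. For the time difference of OSMI-2 they were 14, and 14 to 1772. For that of TMG they were 3, and 3 to 18.

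Introns. With TMM over introns only, which removes a common fall by construction, the count was 1 of 11 at OSMI-2 6 h, 1 at TMG 2 h, 2 and 0 for DMSO time in the OSMI-2 and TMG experiments, and 0 for the drug difference at 6 h and the time difference of OSMI-2. DESeq2 gave 1 at TMG 2 h and 0 for DMSO time in the TMG experiment, and the fit of all libraries 1 at TMG 2 h. With 1 library left out the counts were 9 to 11 at OSMI-2 6 h, 1 to 2 at TMG 2 h, 9 to 11 and 0 to 4 for DMSO time, 5 to 10 for the drug difference, 7 to 10 for the time difference of OSMI-2 and 0 to 1 for that of TMG. Relative to the gene, a mean count of at least 50 left 5 introns called at OSMI-2 6 h, since fewer were tested. At TMG 2 h the limma trend over log ratios left 0, the authors' test 1, and 1 library left out 1 to 2.

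Reversed, all with TMM over introns only: at OSMI-2 6 h PSMA1 E008 0.71, PSMA1 E009 0.55 and PSMD11 E013 0.10; for DMSO time of OSMI-2 PSMA1 E008 -1.05, PSMC4 E010 -0.52, PSMD2 E012 -0.30 and PSMD2 E019 -0.47; for the drug difference PSMA1 E009 0.37 and PSMD2 E019 0.10; for the time difference PSMA1 E009 0.14, PSMC6 E013 0.0051 and PSMD2 E019 0.11.

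Low counts limit PSMC4 E010 and PSMD11 E013, PSMB8 passed the filter in no comparison, and PSMB9 did not pass it at TMG 6 h or for DMSO time in the TMG experiment.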
